A study of Mus musculus with 8 samples.

Results

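Mitochondrial ribosomal proteins build the ribosome that works inside mitochondria, and their genes were followed here between 2 stages of the mouse embryo before implantation. The members were all genes whose single platform symbol starts with Mrpl or Mrps and a number, each read by its brightest probe set, a group of short probes that report one transcript. This gave 76 genes of 18193 named on the arrays. On all 4 arrays of both stages, all 76 exceeded the signal below which 40% of probe sets lie, so none was left out by the filter on low signals and none passed it through 1 stage alone.

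The study measured messenger RNA of whole embryos on 8 one-colour oligonucleotide arrays. It used 4 arrays of 8-cell embryos (embryonic day 2.5, or 66 h from the injection of the ovulation hormone hCG) and 4 of blastocysts (day 4.5, 120 h), the stage with an outer epithelium, an inner cell mass and a cavity. Embryos of both groups were wild type and of strain B6D2F1, from B6D2F1 females mated with B6D2F1 males. They were collected as 1-cell zygotes and grown in KSOM medium under reduced oxygen, so both stages are stages of culture. Nothing in the labels states that the 4 samples of a group are separate collections of embryos. The p-values therefore measure only how these samples scatter, which may be technical.

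The mitochondrial ribosome has a small subunit, which reads the messenger RNA, and a large subunit, which joins amino acids and passes the new chain to the inner membrane. It makes only the proteins encoded by mitochondrial DNA, all of them parts of the respiratory chain and ATP synthase. Its ribosomal RNAs come from mitochondrial DNA, whereas all its proteins are encoded in the nucleus, made in the cytosol and imported. Many of these proteins have counterparts in bacterial ribosomes, and others were added during the evolution of mitochondria. Embryos before implantation inherit their mitochondria from the egg.

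Promoters of several members carry motifs of factors known from nuclear genes for mitochondrial proteins, and a few are shown here because the best known of these motifs, that of the factor NRF1, lies in promoters of genes that moved in opposite directions. Of the 76 members, 67 had a promoter of 300 bases (250 before the start of transcription and 50 after it) in RefSeq's annotation of GRCm38.p6. The motifs searched, on both strands, were the NRF1 core GCGCATGCG, the ETS motif CCGGAAG of the GABPA type, the YY1 motif AAGATGGC and the E-box CACGTG. An NRF1 core lay within 150 bases before the start in 6 members, and those sequences are given 5′ to 3′ on the gene's strand with motif letters in capitals. On the longer windows, where no annotated gene lies, 150 bases are shown, and for Mrpl22 and Mrpl9, whose windows fall inside the annotated span of the gene itself, only 30 bases around the motif.
Mrpl17 (chr7:105811088-105811237, minus strand): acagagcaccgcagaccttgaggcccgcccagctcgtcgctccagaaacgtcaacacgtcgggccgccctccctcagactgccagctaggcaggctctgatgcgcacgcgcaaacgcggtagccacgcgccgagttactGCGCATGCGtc
Mrpl10 (chr11:97041432-97041581, plus strand): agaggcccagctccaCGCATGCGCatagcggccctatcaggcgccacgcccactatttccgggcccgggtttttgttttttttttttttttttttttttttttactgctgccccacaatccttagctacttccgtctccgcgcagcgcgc
Mrpl32 (chr13:14613038-14613187, minus strand): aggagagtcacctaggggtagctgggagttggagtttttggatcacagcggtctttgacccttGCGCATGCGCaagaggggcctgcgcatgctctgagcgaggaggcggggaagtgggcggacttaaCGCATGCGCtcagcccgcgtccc
Mrpl39 (chr16:84735245-84735394, minus strand): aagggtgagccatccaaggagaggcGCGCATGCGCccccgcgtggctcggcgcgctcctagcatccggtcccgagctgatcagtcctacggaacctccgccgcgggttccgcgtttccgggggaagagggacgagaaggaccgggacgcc
Mrpl22 (chr11:58171621-58171650, plus strand): gcctcggactGCGCATGCGtatagtcagcc
Mrpl9 (chr3:94443298-94443327, plus strand): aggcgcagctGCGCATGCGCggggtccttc
The core began 11 bases before the start in Mrpl17, 28 in Mrpl9 and 33 in Mrpl22. In Mrpl9 and Mrpl39, and at 1 of the places in Mrpl32, the matches on both strands overlap as a palindrome. Of these 6 genes, Mrpl17 and Mrpl10 were higher in blastocysts and Mrpl32, Mrpl39, Mrpl22 and Mrpl9 lower, as described below.

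Over the whole promoters, at least 1 of the NRF1, ETS and YY1 motifs was found in 37 of 67 members (55.2%), against 17.7% of 17492 protein-coding genes in the same table. The ETS motif was in 25 members (37.3%, against 12.9%), the YY1 motif in 12 (17.9%, against 3.57%) and the NRF1 core in 7 (10.4%, against 2.61%). The E-box was in 5 members (7.46%) and in 8.91% of protein-coding genes. Among all genes in the table, noncoding ones included, 14.1% held 1 of the first 3 motifs. Split by the expression result, a motif of the 3 was in 15 of 31 higher members, 10 of 16 lower ones and 12 of 20 that did not pass the test. These are matches of letters, counted once per gene over all its listed starts, and binding was not measured.

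Between the 8-cell embryo and the blastocyst the mitochondrial ribosomal protein genes did not move as a block. Of the 76, blastocysts had higher signals of 36 and lower signals of 17, and 23 failed to pass the test, with Mrps36, Mrpl42 and Mrps35 at the upper end and Mrps7, Mrpl20 and Mrpl9 at the lower end. Over all 13274 genes tested on these arrays, 71.7% were called, 37.5% higher and 34.2% lower, so changes in either direction were common and the members had 47.4% higher and 22.4% lower. The median difference of the members was 0.29 on the log2(signal + 16) scale, with the middle 50% between -0.24 and 0.84, against 0.02 for all genes, with the middle 50% between -0.80 and 1.02. Calls are adjusted p-values under 0.05 from limma with Benjamini-Hochberg adjustment over all 13274 genes, and differences are blastocyst minus 8-cell with the standard error (SE).

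Large changes were few. Only 12 members passed the test with a rise of 2-fold or more and 3 with such a fall, where 25.4% and 20.4% of all genes did. The remaining 24 higher members differed by 0.34 to 1.00 and the remaining 14 lower ones by -0.92 to -0.29. In 36 members all 4 blastocyst arrays lay above all 4 8-cell arrays and in 19 all lay below (35.3% and 31.5% of all genes), and in 21 the stages overlapped. For each of the 23 members that did not pass, the 95% interval of the difference stayed inside a 2-fold change either way.

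**Figure D1:**
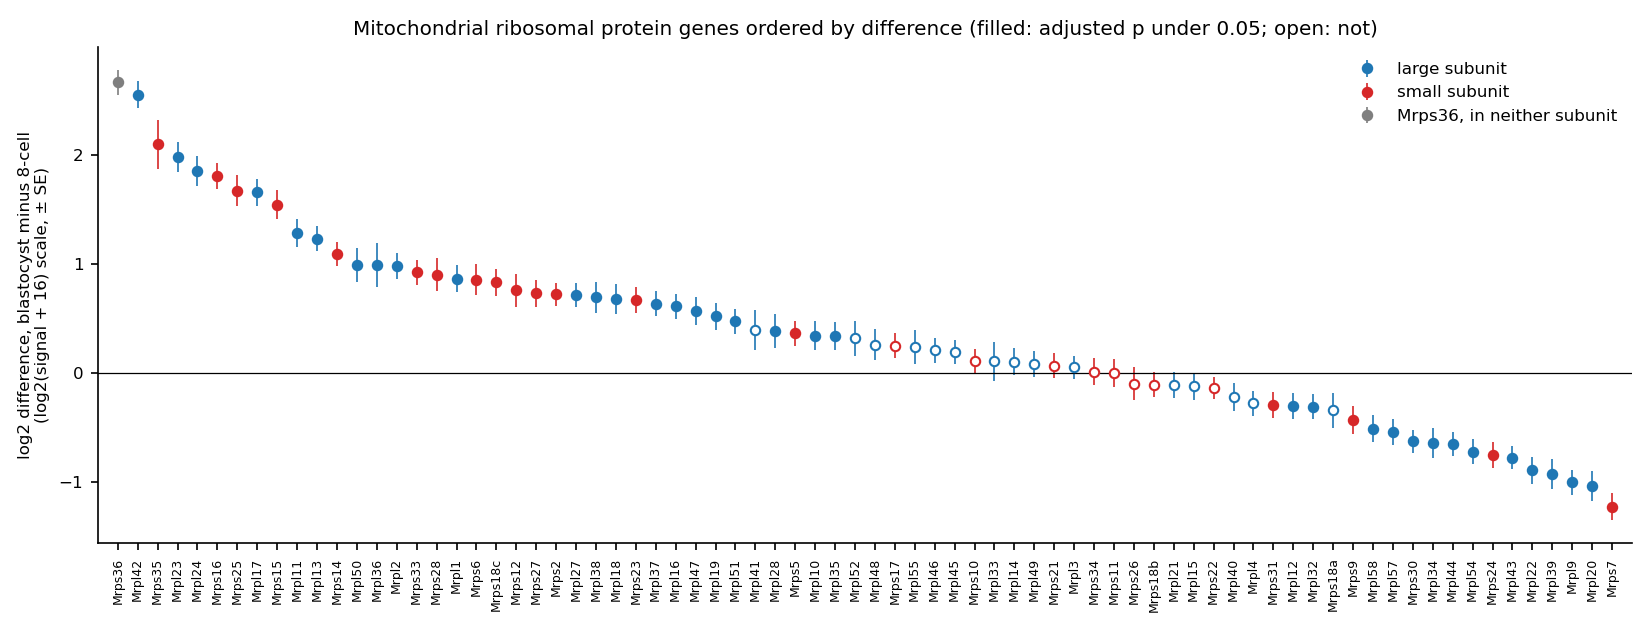
Difference of each of the 76 members between stages, on the log2(signal + 16) scale with SE, ordered from the highest (Mrps36, 2.67) to the lowest (Mrps7, -1.23) and coloured by ribosomal subunit. Filled points passed the test and open points did not, and both subunits appear at both ends.

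The deposited signals of each array had been scaled to a common trimmed mean of 500, so a rise or fall is relative to the other signals of that array and is no amount per embryo or per cell. In whole embryos, more cells of a type that expresses a gene cannot be told apart from more RNA per cell. Arrays of a stage correlated at 0.977 to 0.988 over tested genes, and arrays of different stages at 0.752 to 0.780. Trophectoderm markers (8 of 8 past the filter) summed to 3137 to 3760 on 8-cell arrays and 78180 to 88413 on blastocyst arrays, and genes of the 8-cell and earlier embryo (4 measured) to 31889 to 39384 and 314 to 573, each in the direction of the stage labels. Primitive endoderm markers (7 measured) summed to 10330 to 13559 and 31260 to 39000, and epiblast markers (6 measured) to 14762 to 16196 and 11302 to 15917, which overlap. Gene by gene, 4 epiblast markers were called higher and 2 lower, and 5 primitive endoderm markers higher and 2 lower, beside 37.5% and 34.2% of all genes. Cumulus cell markers (7 measured) summed to 227 to 432 and 224 to 295, and blood and immune markers (4 measured) to 138 to 203 and 79.0 to 156. Fibroblast markers (5 measured) summed to 99.6 to 164 and 205 to 259, higher in blastocysts without overlap. Of these 5, Thy1 and Pdgfrb were called higher, Col1a2 was not called (-0.50), and Col1a1 and Col3a1 lay below the filter. The part of these markers in the results was not tested. The RNA had been amplified, and the 3′ minus 5′ signal of the Actb control was 2.42 ± 0.19 log2 units on 8-cell arrays and 0.82 ± 0.11 on blastocyst arrays (SD, n = 4 each). The Gapdh control gave 2.32 ± 0.26 and 1.36 ± 0.11 in the same way. A two-sided exact permutation test gave p = 0.0286 for each control, which is the smallest possible here, and 0.0571 after adjustment for the 4 quality measures examined. The part of this 3′ to 5′ difference between stages in the results below was not tested. With arrays scaled instead to 18 hybridisation spike-in probe sets, the median of all genes moved up by 0.35, and the members counted 43 higher and 5 lower, beside 42.5% and 21.1% of all genes. The split of member calls was then 89.6% higher, against 67.9% on the deposited scale. The 5 members still lower were Mrps7, Mrpl20, Mrpl9, Mrpl39 and Mrpl22, and the other 12 falls of members described below were not called on that scale.

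Added over the members, the signal was 220250, 213720, 220350 and 203610 on the 8-cell arrays and 254290, 257330, 226050 and 239530 on the blastocyst arrays. The blastocyst sums were all above the 8-cell sums, and the ratio of the means was 1.14. Genes of the small subunit summed to 60533 ± 2120 and 74657 ± 3796 (SD, n = 4 each), a ratio of 1.23, and genes of the large subunit to 153760 ± 6613 and 168352 ± 10699, a ratio of 1.09, with stages that overlapped for the large subunit only.

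Mrps36 had the highest difference, although its product is no longer counted as a ribosomal protein: it is a part of the 2-oxoglutarate dehydrogenase complex of the citric acid cycle. Its signal was 200, 206, 176 and 175 on the 8-cell arrays and 1460, 1196, 1289 and 1223 on the blastocyst arrays. The stages were far apart, and the rise was 6.36-fold (log2 difference 2.67, SE 0.12, adjusted p = 8.66e-08).

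In the small subunit, 14 of 26 genes rose (53.8%), 4 fell (15.4%) and 8 did not pass, beside 37.5% and 34.2% of all genes. The median difference of the subunit was 0.52. Mrps35, a protein added in mitochondria, rose most. It gave 779, 693, 457 and 899 on the 8-cell arrays and 3466, 3695, 2407 and 2613 on the blastocyst arrays. The third 8-cell replicate was the lowest, and every blastocyst array was still well above all 8-cell arrays (2.10, SE 0.23, adjusted p = 2.09e-05). Mrps16, the counterpart of bacterial S16 and a gene in which human mutations cause a combined respiratory chain deficiency, gave 769, 656, 778 and 821 and then 2984, 2779, 2473 and 2540. This was a 3.51-fold rise (1.81, SE 0.12, adjusted p = 8.67e-07), with little spread within a stage.

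Mrps25 was read by several probe sets, and its brightest went from 527, 554, 518 and 442 to 1808, 1893, 1648 and 1334. The stages did not overlap (1.67, SE 0.14), but another probe set past the filter gave 0.36 and was not called. Mrps15, whose 3 probe sets were all called higher (1.55, 1.35 and 1.34 among all probe sets), and Mrps14, likewise with 3 higher probe sets (1.09, 1.37 and 1.12), are counterparts of bacterial S15 and S14. For these genes every probe set gave the same direction.

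Mrps12, the counterpart of S12 at the decoding centre, gave 1781, 1382, 1587 and 1170 in 8-cell embryos and 2480, 2524, 2192 and 2789 in blastocysts. It was higher without overlap (0.76, SE 0.15, adjusted p = 0.00142). Mrps5, the counterpart of S5, which takes part in the accuracy of decoding, differed by less, from 655, 599, 575 and 611 to 701, 818, 806 and 838 (0.36, SE 0.11, adjusted p = 0.0145). Its 4 dimmer probe sets gave 0.19 to 1.74. Other called rises in the subunit were those of Mrps33 (0.93), Mrps28 (0.91), Mrps6 (0.86), Mrps27 (0.73), Mrps2 (0.73) and Mrps23 (0.67).

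Mrps7 had the lowest difference of all members. Its product is the counterpart of S7, an early binding protein in the head of the bacterial small subunit. The signal was 4588, 4227, 5320 and 4461 on the 8-cell arrays and 1967, 1970, 1754 and 2224 on the blastocyst arrays. Every blastocyst array lay below every 8-cell array, a 2.34-fold fall (-1.23, SE 0.13, adjusted p = 1.48e-05). Mrps24, the counterpart of S3 at the entry of the messenger RNA, went from 7144, 7310, 6475 and 6440 to 4407, 4341, 3628 and 3878. It was lower without overlap (-0.75, SE 0.12, adjusted p = 0.000266), while its other probe set gave -0.29 and was not called.

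Mrps9 was called lower (-0.43, SE 0.13) and Mrps31 too (-0.29, SE 0.12, adjusted p = 0.0461), but neither direction held under other choices. The other 3 probe sets of Mrps9 gave 0.26 to 0.31 and were not called, and the mean of its probe sets gave 0.11. Mrps31 gave 0.06 with spike-in scaling, and its call was lost on leaving out 6 of the 8 arrays in turn. Mrps22, a mitochondrial addition and a human disease gene, was at 3320, 3131, 3173 and 2940 and then at 2828, 2903, 2866 and 2822. All its blastocyst arrays lay below, by a small amount that did not pass (-0.14, SE 0.10, adjusted p = 0.255). Mrps34 overlapped (3455, 3084, 2963 and 2771 against 2923, 3425, 2758 and 3301), with a difference of 0.01 and a 95% interval of -0.27 to 0.30.

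The 3 paralogs of bacterial S18 did not share a pattern. Mrps18c, which takes the bacterial place in the small subunit, went from 2354, 2016, 2097 and 1866 to 4096, 3976, 3414 and 3438. It was higher without overlap (0.84, SE 0.12, adjusted p = 0.000197). Mrps18b, which sits elsewhere in the small subunit, was at 8050, 8121, 6988 and 7681 and at 7367, 7339, 6486 and 7492, and the stages overlapped (-0.10, SE 0.11, adjusted p = 0.425). Mrps18a, which despite its name lies in the large subunit, gave 3191, 2669, 2304 and 3068 and then 2563, 2530, 1903 and 1878 (-0.34, SE 0.16, adjusted p = 0.0849). The differences between paralogs were not tested against each other.

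In the large subunit, 21 of 49 genes rose (42.9%), 13 fell (26.5%) and 15 did not pass, with a median difference of 0.24. All genes had 37.5% higher and 34.2% lower, with a median of 0.02. By origin, members of either subunit with a bacterial counterpart counted 25 higher (55.6%) and 9 lower (20%) of 45 (median 0.36). Mitochondrial additions counted 10 higher (33.3%) and 8 lower (26.7%) of 30 (median 0.14). Mitochondrial additions of the large subunit had 5 higher (25%) and 7 lower (35%) of 20. No test compared these classes, and the median of the mitochondrial additions was -0.09 without the _x_at, _s_at and _a_at probe sets, types that can match several transcripts.

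**Figure D2:**
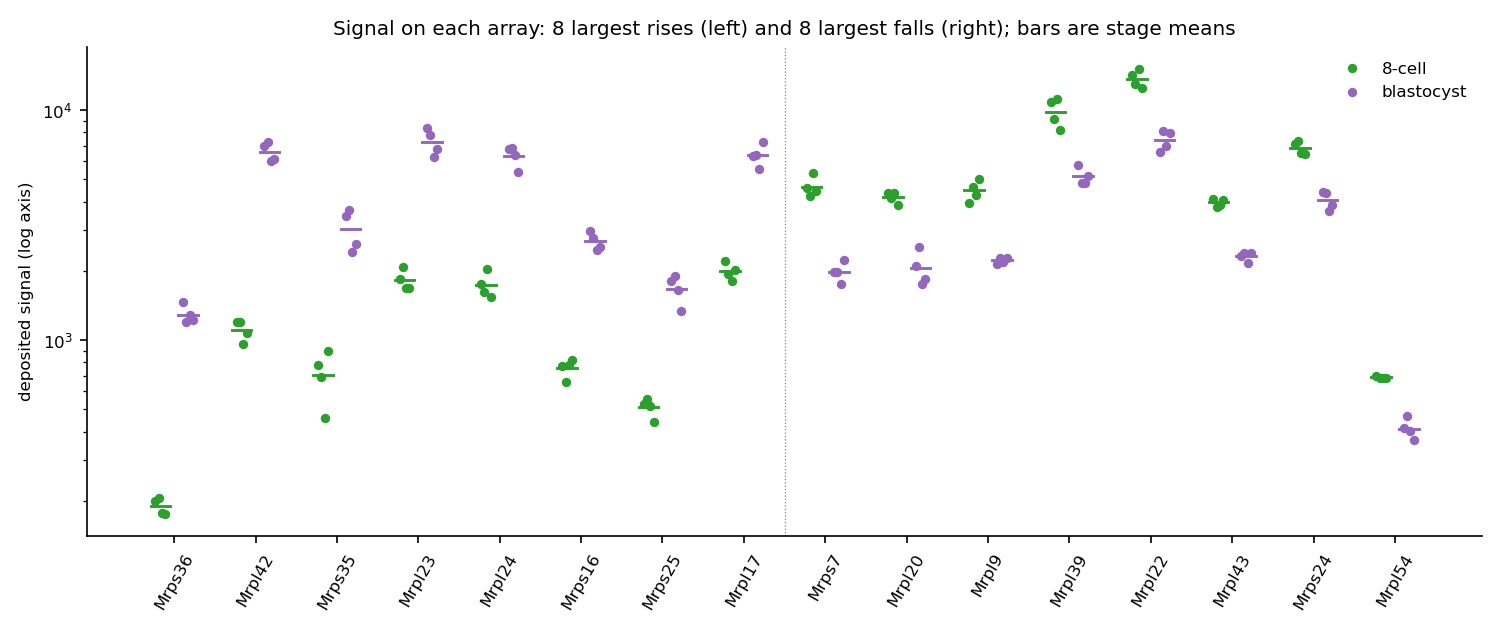
Deposited signal (log axis) on each of the 8 arrays for the 8 members with the largest rises and the 8 with the largest falls among called members with separate stages; points are arrays and bars stage means. The rises reach 6.36-fold (Mrps36) and the falls 2.34-fold (Mrps7), and the stages are separate in each of these genes.

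At the peptidyl transferase centre, where the amino acids are joined, 3 of the 4 genes described here were higher and 1 did not pass. Over all genes 37.5% were higher, and these 4 were chosen for description, so the count does not describe the whole centre. Mrpl2 rose from 2960 ± 168 to 5901 ± 646 (0.99, SE 0.12), Mrpl16 from 1675 ± 132 to 2572 ± 156 (0.62, SE 0.11) and Mrpl27, whose bacterial counterpart reaches into the centre, from 3282 ± 219 to 5411 ± 361 (0.72, SE 0.11; SD, n = 4 in each stage, limma adjusted p of 0.000811 or less). Mrpl3, a human disease gene, was at 4100, 3979, 3786 and 3540 and at 3895, 4025, 3886 and 4199. The stages overlapped (0.06, SE 0.11, 95% interval -0.18 to 0.29).

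The genes described here from around the exit tunnel, through which the new chain leaves, went both ways (37.5% of all genes were higher and 34.2% lower). Mrpl23 gave 1848, 2085, 1680 and 1688 on the 8-cell arrays and 8338, 7825, 6228 and 6790 on the blastocyst arrays, a 3.96-fold rise (1.99, SE 0.14, adjusted p = 1.01e-06). Mrpl24, its neighbour at the tunnel exit in bacteria, gave 1758, 1614, 2042 and 1537 and then 6757, 6815, 6348 and 5403, a 3.62-fold rise (1.86, SE 0.14). Both genes had 1 probe set, and their blastocyst arrays were each above every 8-cell array.

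Mrpl17, also near the exit, went from 2202, 1936, 1816 and 2025 to 6284, 6399, 5527 and 7230 (1.66, SE 0.12). That value rests on a probe set of the _a_at type, and the brightest of its other probe sets, a far dimmer one, gave -0.03. Another, dimmer still, gave 0.62 and was called higher. Mrpl22, which lines the tunnel, moved the opposite way, from 14224, 13021, 15041 and 12408 to 6564, 8098, 6946 and 7913. It fell by 0.89 on the log2 scale (SE 0.12, adjusted p = 0.000123), with no overlap. Mrpl4, on the other wall of the tunnel, was lower on all blastocyst arrays without passing (-0.28, SE 0.12, adjusted p = 0.0577). Mrpl45, which holds the ribosome at the inner membrane, was higher on all blastocyst arrays, again without passing (0.19, SE 0.11, adjusted p = 0.144).

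Of the 3 genes described here from the stalk and its base, which recruit translation factors, 1 had a large rise and 2 differed by little. Called rises of 2-fold or more were found in 25.4% of all genes. Mrpl11, of the stalk base, gave 1598, 1430, 1308 and 1507 and then 4041, 3903, 3110 and 3340. It rose 2.44-fold (1.29, SE 0.13, adjusted p = 1.36e-05), although 3 further probe sets gave 0.00 to 0.58 and were not called. Mrpl10, which carries the stalk, gave 1652, 2252, 1658 and 1640 against 2328, 2364, 2298 and 2100. It was called higher (0.35, SE 0.14, adjusted p = 0.0432) although the stages overlapped, because its second 8-cell replicate stood above the lowest blastocyst array. The call of Mrpl10 was lost in 8 of 20 other settings, 6 of them the omission of a single array (adjusted p from 0.00681 to 0.0998 over all 20).

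Mrpl12, the stalk protein that is also known to bind the mitochondrial RNA polymerase, gave 6563, 6721, 7395 and 6554 in 8-cell embryos. In blastocysts it gave 5898, 5988, 4812 and 5457. The blastocyst arrays lay below by a small amount (-0.30, SE 0.12, adjusted p = 0.0428), and with spike-in scaling the difference was 0.05, on the other side of 0. The call of Mrpl12 was lost in 13 of 20 other settings, 7 of them the omission of a single array.

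The member with the second highest difference was Mrpl42, a mitochondrial addition. Its signal was 1198, 1198, 958 and 1071 in 8-cell embryos and 6995, 7259, 5998 and 6102 in blastocysts. The 5.89-fold rise (2.56, SE 0.13, adjusted p = 1.55e-07) left every blastocyst array far above every 8-cell array. Other called rises of at least 0.60 in this subunit were those of Mrpl13 (1.23), Mrpl50 (1.00), Mrpl36 (0.99), Mrpl1 (0.87), Mrpl38 (0.70), Mrpl18 (0.68) and Mrpl37 (0.64). Of these, Mrpl38 gave -0.02 without probe sets ending in _x_at, _s_at or _a_at, a value read from a dim probe set (97.0 and 94.8). Another dim probe set of that gene went from 27.2 to 159 and was called higher (2.07).

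Among the falls of the large subunit, Mrpl20, a counterpart of bacterial L20, which binds early during assembly, went from 4352, 4166, 4359 and 3882 to 2094, 2527, 1755 and 1850. It was 2.05-fold lower (-1.03, SE 0.14, adjusted p = 9.30e-05). Mrpl9 went from 3963, 4629, 4283 and 5026 to 2145, 2265, 2195 and 2276 (-1.001, SE 0.11, adjusted p = 3.19e-05). Its blastocyst arrays lay close together, and all 3 of its probe sets were called lower (-1.001, -0.49 and -0.44).

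Mrpl39, a mitochondrial addition, gave 10803, 9096, 11114 and 8214 and then 5784, 4836, 4805 and 5149. The fall had no overlap (-0.92, SE 0.14, adjusted p = 0.000192), but the other probe set of the gene gave -0.16 and was not called. Mrpl43 gave 4120, 3805, 3885 and 4078 against 2320, 2399, 2158 and 2387 (-0.77, SE 0.10, adjusted p = 9.18e-05). Mrpl54, the dimmest of the 8 largest falls, gave 697, 682, 687 and 687 against 413, 470, 401 and 367 (-0.72, SE 0.11). In both genes the stages were separate.

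Mrpl44, which carries a domain related to ribonuclease III and is a human cardiomyopathy gene, went from 8718, 7409, 8370 and 7429 to 5010, 5237, 5019 and 5038. It was lower without overlap (-0.65, SE 0.11, adjusted p = 0.000440). The dimmer probe sets of Mrpl44 gave smaller falls, -0.31 and -0.37, both called lower, and -0.10, not called. Mrps30, a protein of the large subunit despite its name, went from 4654, 4638, 4822 and 5107 to 3339, 3161, 2889 and 3048 (-0.63, SE 0.11, adjusted p = 0.000470). Mrpl58, a peptidyl-tRNA hydrolase that became a ribosomal protein, was lower by 0.51 on the log2 scale, from 3677 ± 202 to 2593 ± 343 (SD, n = 4 each), as called by limma with adjusted p = 0.00500. The remaining lower genes were Mrpl34 (-0.64), Mrpl57 (-0.54) and Mrpl32 (-0.31). The call of Mrpl32 was lost on leaving out 7 of the 8 arrays in turn, and with spike-in scaling its difference was 0.045. Mrpl41, which is known to bind the apoptosis regulator BCL2, gave 3133, 2540, 3258 and 2024 against 3944, 4057, 2929 and 3356 and did not pass (0.39, SE 0.18, adjusted p = 0.0772).

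**Figure D3:**
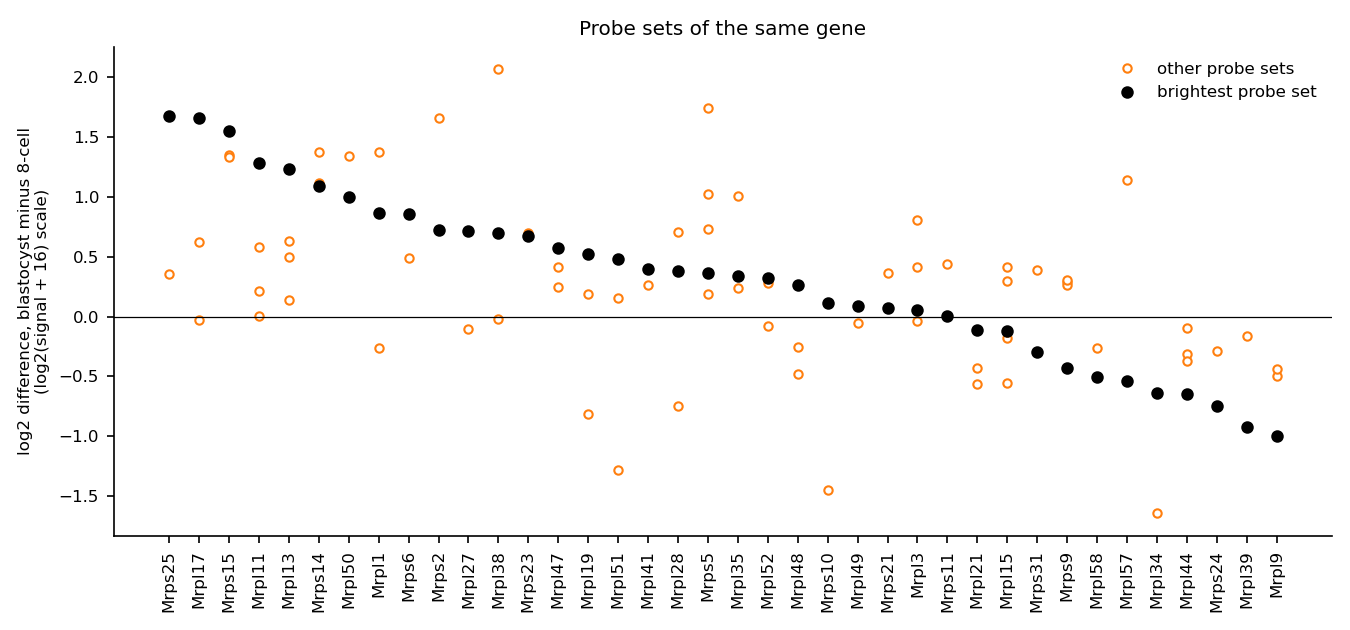
Differences between stages, on the log2(signal + 16) scale, for the 38 members with several probe sets past the filter; black points are the brightest probe set, which gives the value of the gene, and open orange points its other probe sets. Mrps15 and Mrps14 keep their points together, whereas Mrpl51, Mrpl57 and Mrps10 have points on both sides of 0.

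The arrays often carried several probe sets of a gene, 156 in all for the members, of which 146 passed the filter. Tested among all 23724 probe sets past the filter, of which 35.3% were called higher and 33.6% lower, the 38 members with several such probe sets gave uneven answers. All probe sets were higher in 6 genes (Mrpl50, Mrps14, Mrps15, Mrps2, Mrps23 and Mrps6), all were lower in 2 (Mrpl34 and Mrpl9) and none was called in 6. Called and uncalled probe sets stood side by side in 19 genes, and 5 genes had calls in both directions. These 5 were Mrpl15, Mrpl19, Mrpl28, Mrpl51 and Mrpl57. For Mrpl57 the brightest probe set fell from 6049 to 4175, and the other went from 64.05 to 151 (1.14). For Mrpl51 the brightest rose from 5828 to 8124, and a dim one went from 56.9 to 15.3 (-1.28).

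Beside the families most like it, the mitochondrial ribosome lay between the cytosolic ribosome and genes named for the first complex of the respiratory chain. Both families were taken by gene symbol, so the cytosolic one also holds the ribosomal protein-like symbols Rpl7l1, Rpl39l, Rpl22l1 and Rps27l. The Complex I one holds Ndufa4 (2.21, called higher), whose product is now placed in complex IV. Of 47 tested genes of the cytosolic family 4 rose (Rpl22l1 among them), 19 fell (Rpl7l1 and Rpl39l among them) and 24 did not pass. The median was -0.30. That is 8.51% higher and 40.4% lower, beside 37.5% and 34.2% of all genes. Some genes of this family were read by probe sets far dimmer than its median 8-cell signal of 22730. Rps6 and Rpl14 (8-cell means 1068 and 1844) were called higher, and Rps27 and Rpl39 (633 and 461) lower. Of 33 tested genes with symbols of Complex I subunits (Nduf, a letter and a number) 26 were higher (78.8%), 0 lower and 7 did not pass by limma. Their median was 1.15. At an unadjusted p under 0.05, 28 of the 33 were higher and 0 lower, and in the cytosolic family 4 were higher and 22 lower. The members, at 36 higher and 17 lower of 76 and a median of 0.29, had their middle 50% between -0.24 and 0.84. In the cytosolic family it lay between -0.52 and -0.19, and the lowest gene, the ribosomal protein-like Rpl7l1, reached -2.16. The differences between families were not tested.

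**Figure D4:**
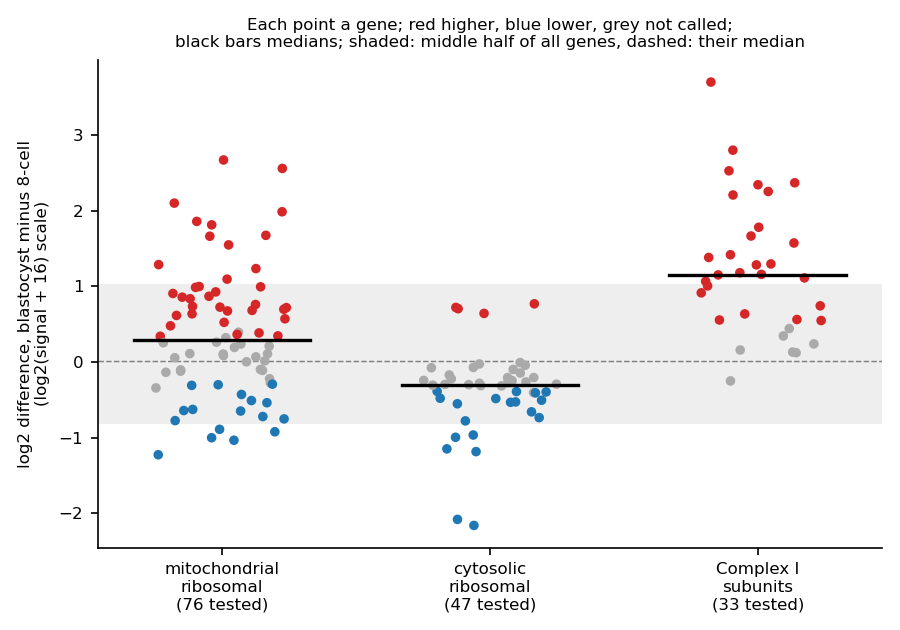
Each point is a tested gene of 1 of 3 families, placed by its difference between stages on the log2(signal + 16) scale; red is called higher, blue lower and grey neither, and black bars are medians (0.29, -0.30 and 1.15). The shaded band is the middle 50% of all 13274 genes, -0.80 to 1.02.

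Among ribosome genes with other names, 5 were not members. Of these 3 rose and 1 fell, beside 37.5% and 34.2% of all genes, and 1 did not pass. All 5 are described, Chchd1 and Ptcd3 named after their values were seen. Dap3, a GTP-binding protein of the small subunit, rose from 997 ± 228 to 4894 ± 378 (SD, n = 4 each; log2 difference 2.30, SE 0.17) and Chchd1, another of that subunit, by 0.95 (SE 0.11). Gadd45gip1, of the large subunit, fell by 1.36 on the log2 scale (SE 0.16), and Ptcd3, of the small subunit, gave 0.07 and did not pass. Oxa1l, the inner membrane insertase that receives the new chains, rose by 1.604 (SE 0.13).

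For the lists that follow, the shares over all genes were 37.5% higher and 34.2% lower. Assembly factors and enzymes that modify the ribosomal RNA counted 14 higher (56%), 8 lower (32%) and 3 not called of 25 tested. Their median was 0.35. The largest rises were those of Mpv17l2 (2.16, SE 0.23) and of Mcat (1.64, SE 0.17), which is known as an enzyme of mitochondrial fatty acid synthesis. The falls were led by the GTPase gene Noa1 (-2.04, SE 0.12) and the helicase gene Dhx30, which went from 10220 to 3574 (-1.51, SE 0.11). Factors of mitochondrial translation and of its messenger RNAs counted 9 higher (60%), 3 lower (20%) and 3 not called of 15. Their median was 0.66. Slirp, which stabilises mitochondrial messenger RNA, rose by 1.48 (SE 0.13) and Mtfmt, which formylates the initiator transfer RNA, by 1.32 (SE 0.19). Tufm, the elongation factor that brings the aminoacyl-tRNA, fell by 1.17 (SE 0.10), and Ptcd1 by 1.07 (SE 0.34).

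Mitochondrial transcription and RNA processing had 8 higher (44.4%), 8 lower (44.4%) and 2 uncalled genes of 18, beside 37.5% and 34.2% of all genes. Polrmt, the mitochondrial RNA polymerase, fell from 12052 ± 1070 to 1674 ± 83.3 (-2.83, SE 0.11), and its initiation factor Tfb2m from 7030 ± 929 to 1223 ± 182 (-2.51, SE 0.15; SD, n = 4 in each stage). Hsd17b10, a dehydrogenase that is also a subunit of mitochondrial RNase P, rose by 3.71 (SE 0.23), and Mterf2 by 3.09 (SE 0.20). Mterf2 was above the filter level on 2 of 4 8-cell arrays, so its size depends on the added 16.

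Import and folding genes, by which the ribosomal proteins enter mitochondria, counted 9 higher, 8 lower and 7 not called of 24. That is 37.5% higher and 33.3% lower, close to the 37.5% and 34.2% of all genes. The chaperonin subunit Hspe1 rose by 1.67 (SE 0.14) and the small import chaperone Timm8b by 0.95 (SE 0.14), while the inner membrane import genes Timm50 (-1.22, SE 0.12) and Timm17a (-1.17, SE 0.13) fell. Of 12 tested regulators of nuclear genes for mitochondria, 3 were higher (25%) and 8 lower (66.7%), beside 37.5% and 34.2% of all genes. Mycn (3.53, SE 0.22) and the coactivator gene Ppargc1b (3.34, SE 0.16) rose, and Gabpb1, a partner of GABPA, fell by 2.05 (SE 0.17) and Esrrb by 1.34 (SE 0.16). Named after their values were seen, because their motifs were searched in the promoters, Gabpa fell by 0.92 (SE 0.11) and Yy1 by 1.15 (SE 0.13), and Nrf1 gave -0.24 (SE 0.18, adjusted p = 0.256).

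**Figure D5:**
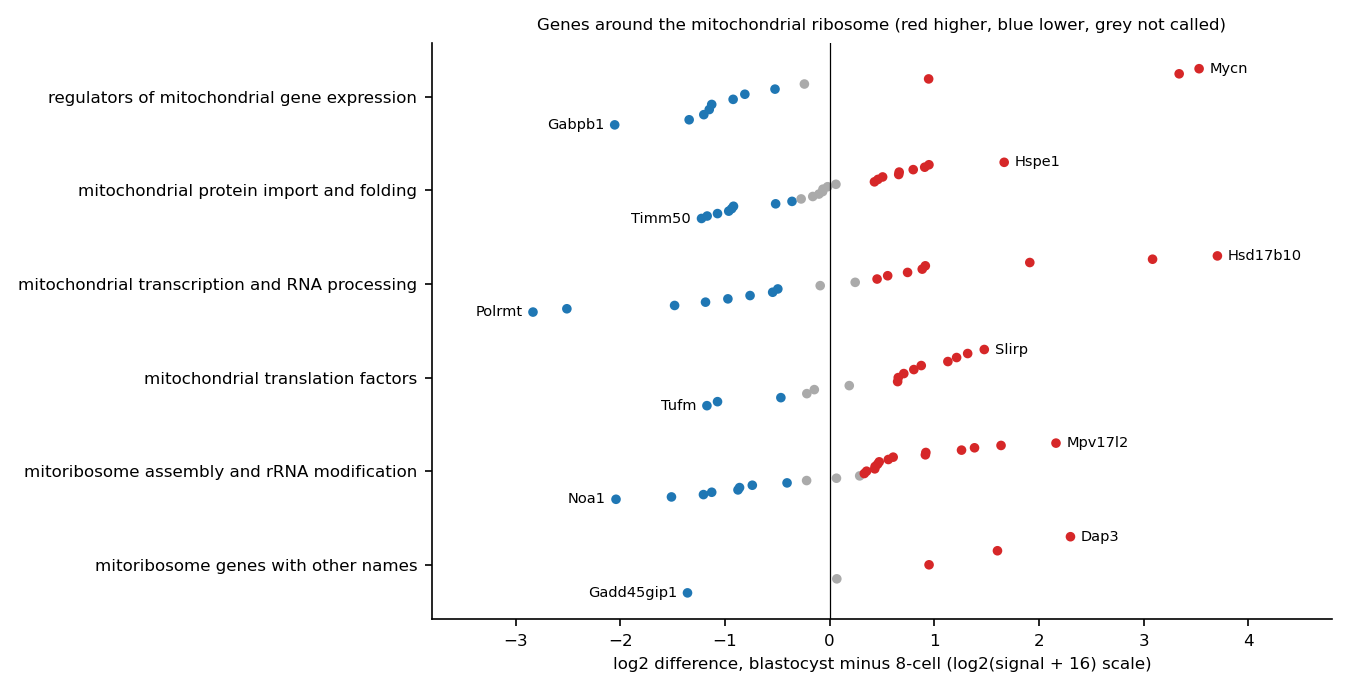
Tested genes of 6 lists around the mitochondrial ribosome, members left out, by their difference between stages on the log2(signal + 16) scale; red is called higher, blue lower and grey neither, and the highest and lowest gene of each list is named. Each list has genes on both sides of 0, from Polrmt at -2.83 to Hsd17b10 at 3.71.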

How the data were processed

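The values the authors deposited are intensity values of 45101 probe sets, not in logarithms. Per the labels' protocols, RNA was isolated with a small-sample kit, amplified and labelled with biotin, and for the summarising software no name was given in the sources used here. Probe sets were named from the platform's annotation (34945 with 1 symbol, 932 with several, 9160 not listed and 64 controls), and those without exactly 1 symbol were left out. Probe sets with several symbols include those of Mrpl30 and Mrpl53, which were therefore no members. Gene IDs were looked up in RefSeq's table of GRCm38.p6, which changed 0 symbols.

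Signals became log2(signal + 16), and the deposited scale was kept because array medians differed by 0.19 log2 units at most. Folds on this scale understate changes of dim genes. Genes above the 40th percentile of an array on at least 4 of 8 arrays were tested with limma 3.58.1 (R 4.3.3), without covariates. Plots used matplotlib 3.10.9. On simulated data with 13274 genes, 200 of them changed, 8.96% of changes of 0.5 log2 units were recovered, 61.2% of 1 and 92.6% of 2, and 6% of calls were false. On the real arrays 71.7% of genes were called, which makes the Benjamini-Hochberg cutoff looser than in the simulation. These recovery rates therefore do not describe the comparison of the stages. The number of arrays limits the precision.

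Every member could be named. Values of all arrays are given for the 8 called members that rose most and the 8 that fell most among members with separate stages and for 16 fixed members, some of them among the former. From each pathway list the 2 highest and 2 lowest called genes were named by their differences, and other genes named are said to be so. Subunit, place on the ribosome and origin follow general knowledge. The members, lists and classes were chosen with earlier results of these data known.

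Alternatives were other scalings, filters, probe set rules, added constants and variance models, array weights, a replicate block and each array left out. Replicate numbers of the stages showed no pairing (correlations of same-numbered deviations -0.035 to -0.024).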

Additional observations from a re-analysis of the deposited data

Results flagged for a closer look

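Of 60 stages of 30 members checked for a single array apart from the other 3, 3 had one, and chance gives about 1 in 20. For Mrpl10, 8-cell replicate 2 was at 2250, and the other 8-cell arrays were at 1640 to 1660. For Mrpl44, blastocyst replicate 2 was at 5240, against 5010 to 5040 on the others. For Mrps18b, blastocyst replicate 3 was at 6490, against 7340 to 7490.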

How the results depend on the processing

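Counts of higher and lower members stayed within 1.5 times the reported ones under 12 other settings, with 1 exception. Scaling to the spike-ins left 5 members lower, with 2806 of all genes and 23 of the pathway genes lower (17, 4539 and 36 on the deposited scale), and moved the medians to 0.59 for the large subunit, 0.87 for the small one, 0.72 for bacterial counterparts and 0.49 for mitochondrial additions. Quantile scaling gave 0.41 for the small subunit. Averaging all probe sets per gene gave medians of 0.15 (large), 0.68 (small) and 0.033 (mitochondrial additions), and leaving out probe sets ending in _x_at, _s_at or _a_at gave 0.11 (large) and -0.088 (mitochondrial additions), with 14 members then unmeasured. The cause of these shifts was not tested.

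Sign changes were found for 4 of 36 higher members and 5 of 17 lower ones, each time without a call on the other side, and for 17 of 23 members not called, of which only Mrps10 was then called. With spike-in scaling Mrpl12 gave 0.053, Mrpl32 0.045 and Mrps31 0.061. With the mean of probe sets Mrpl19 gave -0.22, Mrpl51 -0.22, Mrpl57 0.30, Mrps10 -0.67 (limma adjusted p = 0.0130), Mrps31 0.049 and Mrps9 0.11. Without _x_at, _s_at and _a_at probe sets Mrpl17 gave -0.030, Mrpl38 -0.019 and Mrps9 0.29. The same call stood in every setting that gave a value for 27 of 36 higher members, 4 of 17 lower ones (Mrpl9, Mrpl20, Mrpl22 and Mrps7) and 10 of 23 not called. Omitting some single arrays ended the calls of Mrpl10, Mrpl28, Mrpl35, Mrpl12, Mrpl32 and Mrps31.

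With each of the 8 arrays left out in turn, 33 to 37 members were higher and 14 to 16 lower, 4783 to 4880 of all genes higher and 4331 to 4507 lower, and 42 to 46 pathway genes higher and 33 to 36 lower. Medians ranged from 0.19 to 0.26 (large), 0.49 to 0.57 (small), 0.31 to 0.41 (bacterial counterparts) and 0.10 to 0.16 (mitochondrial additions). With the replicate number as a block, 32 members were higher and 14 lower, beside 4862 and 4412 of all genes, and no same-numbered arrays matched each other best, so the numbers give no pairing. Arrays give no read depth, and the probe sets of Mrpl51 and Mrpl57 with the opposite call are far dimmer than the brightest ones of those genes.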

Other observations

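Probe sets that the platform assigns to several genes were left out of the comparison, and 4 of them name a mitochondrial ribosomal protein. The one shared by Gm6238 and Mrpl30 gave 1861 ± 164 in 8-cell embryos and 2915 ± 267 in blastocysts (SD, n = 4 each), with all blastocyst arrays above. A second one shared by these genes stayed below the filter, at 4.58 and 3.38. The probe set shared by Ccdc142 and Mrpl53 gave 1821 ± 224 and 2510 ± 329, with all blastocyst arrays above. The probe set shared by Nme3 and Mrps34 gave 57.6 ± 26.3 and 520 ± 57.0, again with all blastocyst arrays above, while the probe set that names Mrps34 alone overlapped between stages. These probe sets cannot separate the genes they share.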
